A study of Mus musculus with 28 samples.

Results

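The enzymes that turn cholesterol into bile acids were measured as messenger RNA in the liver of 28 male mice. The 10 genes are Cyp7a1, Cyp8b1, Cyp27a1, Cyp7b1, Cyp39a1, Hsd3b7, Akr1d1, Cyp2c70, Acox2, and Amacr. They were chosen by symbol as established enzymes of the pathway, and all 10 were found among the 21935 genes of the count table. All mice carried the Lepob mutation on the B6.V-Lepob/JRj background, which removes the hormone leptin and leads to obesity. They were 5 weeks old at arrival, then ate the AMLN diet (high in fat, fructose, and cholesterol) over 14 weeks before 2 weeks of oral treatment, given each day. The 10 vehicle mice received carboxymethylcellulose alone, 9 mice received OCA at 30 mg/kg, and 9 received INT-787 at 30 mg/kg. OCA (obeticholic acid) and INT-787 are modified bile acids that activate FXR, the nuclear receptor for bile acids, and INT-787 differs from OCA by an added hydroxyl group. No lean or untreated mice were among these groups, so every difference is one between obese mice on the diet, and both drugs were compared with the same vehicle mice.

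Bile acids are made from cholesterol in hepatocytes by a classical route, which starts with Cyp7a1, and an alternative route, which starts with Cyp27a1. Cyp8b1 adds the 12-alpha-hydroxyl group that makes cholic acid, and Cyp2c70 makes the muricholic acids that mice have and humans lack. Bile acids that activate FXR lower their own synthesis, through Nr0b2 (SHP) in the liver and through the gut hormone FGF15, which acts on Fgfr4 and Klb on hepatocytes.

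Vehicle replicate 6 had 1009593 counts in total, and the other mice had 9313260 to 22421506. Over 59 genes that lie largely opposite an expressed gene, the median ratio of their counts per base to those of that gene was 1.5 in vehicle replicate 5, against 0.0292 to 0.108 in the other 27 mice. Among the enzymes, only Hsd3b7 lies opposite another gene. The hepatocyte markers were high in every group, with a summed level over 7 genes of 73421 to 139991 CPM (counts per 1000000 reads) in vehicle mice, 117278 to 208807 with OCA, and 107292 to 177623 with INT-787. In whole liver, fewer cells of a type and less RNA per cell cannot be told apart.

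The start regions of 3 enzymes are shown because they carry the pattern of the results: Cyp8b1 had the deepest fall under both drugs, Cyp2c70 rose under both, and Akr1d1 had the highest rise and the greatest called difference between the drugs. Each line is taken from the 250 bases before the start of the gene in RefSeq (build GRCm38.p6), 5′ to 3′ on the strand of the gene. For Cyp2c70 the last 47 of these bases lie inside the gene as GENCODE gives it and are left out. RefSeq windows were matched for 6 of the 10 enzymes. Capitals mark matches to 4 motifs searched on both strands: an LRH-1 site (TCAAGGNCA), an HNF4A core (CAAAGNNCA), the core of an FXR inverted repeat (TCANTGA), and a TATA box (TATAAA).
Cyp8b1, chr9:121916306-121916555, minus strand: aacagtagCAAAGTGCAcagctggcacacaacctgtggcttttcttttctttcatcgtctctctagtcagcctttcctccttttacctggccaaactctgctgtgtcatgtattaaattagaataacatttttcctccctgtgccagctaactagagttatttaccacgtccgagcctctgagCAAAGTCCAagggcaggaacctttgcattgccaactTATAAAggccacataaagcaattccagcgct
Cyp2c70, chr19:40187334-40187536, minus strand: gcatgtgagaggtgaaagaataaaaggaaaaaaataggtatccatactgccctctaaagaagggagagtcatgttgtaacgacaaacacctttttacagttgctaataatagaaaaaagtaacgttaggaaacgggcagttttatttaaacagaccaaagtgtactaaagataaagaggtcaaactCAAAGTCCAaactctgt
Akr1d1, chr6:37529923-37530172, plus strand: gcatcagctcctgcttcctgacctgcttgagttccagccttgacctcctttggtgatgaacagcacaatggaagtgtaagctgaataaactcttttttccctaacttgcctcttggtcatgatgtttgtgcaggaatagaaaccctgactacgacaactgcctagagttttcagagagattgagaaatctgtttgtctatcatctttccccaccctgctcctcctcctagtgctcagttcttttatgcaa

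Cyp8b1 and Cyp2c70 held the same 9 letters of the HNF4A core, CAAAGTCCA, on the strand of the gene and at nearly the same place, from 67 to 59 bases before the RefSeq start in Cyp8b1 and from 64 to 56 in Cyp2c70. Cyp8b1 had another match to this core from 242 to 234 bases before its start. Both genes also matched the TATA box, from 31 to 26 bases before the start in Cyp8b1 and, on the other strand, from 29 to 24 in Cyp2c70, where the match lies in the bases left out. The windows of Akr1d1, Cyp27a1, and Acox2 held none of the 4 motifs, those of Acox2 lying wholly inside its GENCODE gene, and that of Hsd3b7 held 1 HNF4A core and 1 FXR core. Over all 32851 windows, the HNF4A core was found in 5.49%, the TATA box in 12.4%, the FXR core in 5.93%, and the LRH-1 site in 1.39%.

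Genes were tested with edgeR's quasi-likelihood test, with p adjusted over the 12580 genes that passed a filter on low counts, and were called at an adjusted p of at most 0.05. Of the 10 enzymes, 9 passed the filter and Hsd3b7 did not. With INT-787, 8 of the 9 were called against vehicle, 5 higher and 3 lower, where 19.6% of all tested genes were called, 10.2% higher and 9.48% lower. With OCA, 8 of the 9 were called, 4 higher and 4 lower, where 6.6% of all genes were called, 4.15% higher and 2.45% lower. Between INT-787 and OCA, 2 of the 9 were called, both higher with INT-787, where 5.38% of all genes were called, 2.19% higher and 3.19% lower. The median log2 fold change of the 9 enzymes was 0.28 for INT-787, 0.19 for OCA, and 0.10 between the drugs, beside medians of -0.0010, 0.018, and -0.0065 over all tested genes. These medians hide opposite moves. The entry enzyme Cyp7a1, the branch enzyme Cyp8b1, and Cyp7b1 were called lower with both drugs, and Cyp27a1 with OCA only. Called higher with both drugs were Cyp39a1, Akr1d1, Cyp2c70, and Amacr, and with INT-787 only Acox2.

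**Figure D1:**
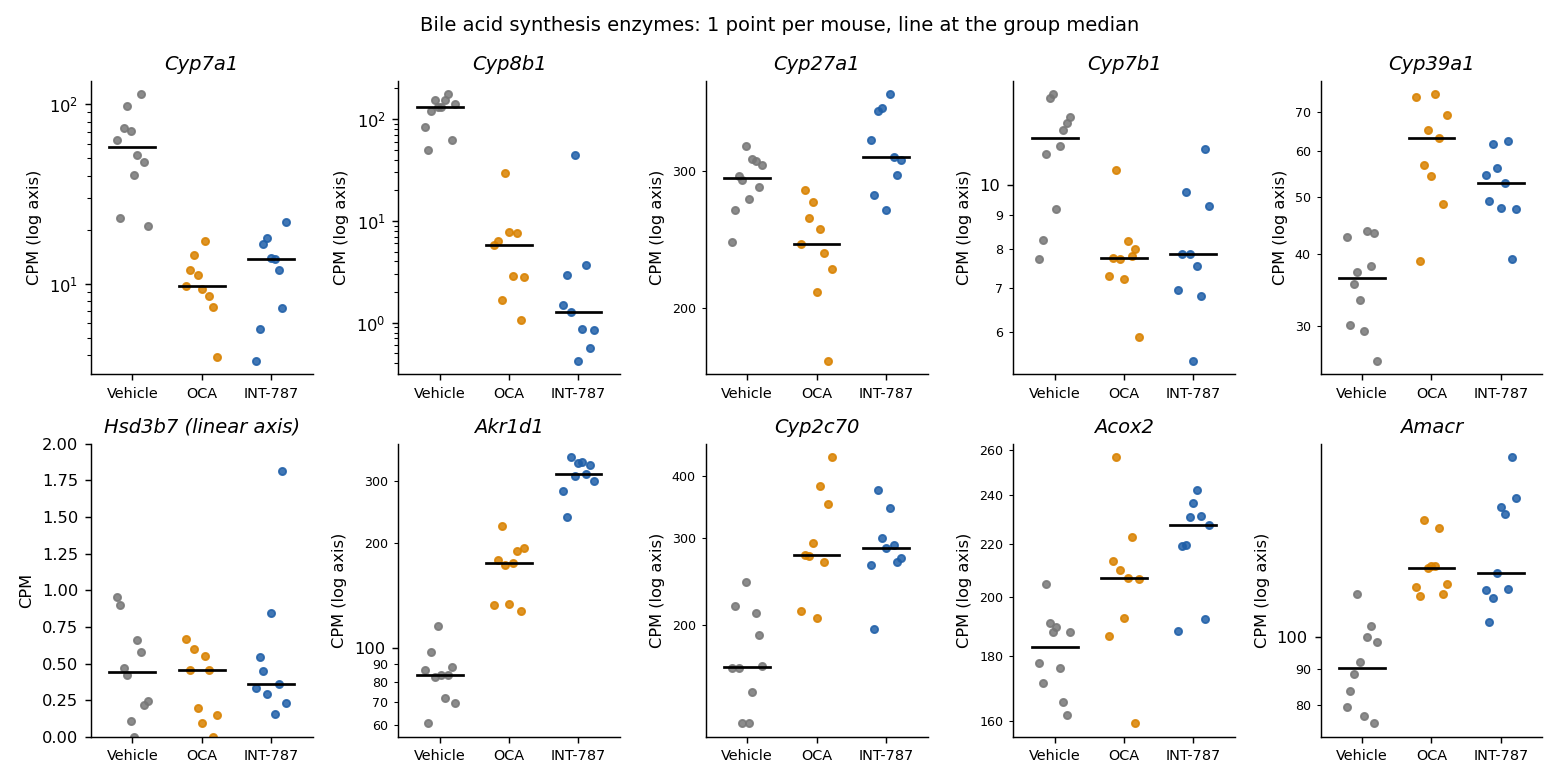
Level of each enzyme in every mouse, in CPM on a log axis (linear for Hsd3b7, which has mice at 0), by treatment, with 1 point per mouse and a line at the group median. Cyp7a1 and Cyp8b1 sit low in both drug groups, Akr1d1 forms 3 separate steps, and replicate 4 of each drug group stands above the other mice of its group for Cyp8b1.

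Cyp7a1 (ENSMUSG00000028240, chr4:6265612-6275633, GRCm38), the rate-limiting enzyme of the classical route, fell with both drugs. Its level in vehicle mice was 21.05 CPM at the lowest, 57.6 at the median, and 113 at the highest. With OCA these values were 3.90, 9.76, and 17.3 CPM, and with INT-787 they were 3.72, 13.7, and 22.1 CPM. All 9 OCA mice were below the lowest vehicle mouse, and so were 8 of 9 INT-787 mice, the exception being INT-787 replicate 9. The log2 fold change was -2.54 (SE 0.31, adjusted p = 8.5e-07) for OCA, which is 5.83-fold lower, and -2.28 (SE 0.31, adjusted p = 1.6e-06) for INT-787, which is 4.85-fold lower. INT-787 against OCA gave 0.27 on the log2 scale (95% interval -0.36 to 0.90, adjusted p = 0.73), an interval of 0.777-fold to 1.86-fold.

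Cyp8b1 (ENSMUSG00000050445, chr9:121914356-121916305), the sterol 12-alpha-hydroxylase, had the deepest fall of the 9 enzymes with both drugs. Vehicle mice ranged from 49.7 through a median of 131 to 175 CPM. OCA mice ranged from 1.05 through 5.81 to 29.3 CPM, and INT-787 mice from 0.423 through 1.27 to 44.1 CPM. Every treated mouse was below every vehicle mouse. The log2 fold change was -4.11 (SE 0.67, adjusted p = 9.0e-05) for OCA and -4.28 (SE 0.68, adjusted p = 2.1e-05) for INT-787, or 17.3-fold and 19.5-fold lower.

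The highest Cyp8b1 value in each drug group came from replicate 4, at 29.3 CPM with OCA and 44.1 CPM with INT-787. The next highest values were 7.76 CPM with OCA and 3.67 CPM with INT-787. These mice decided the comparison between the drugs, which was -0.17 on the log2 scale with all mice (95% interval -1.52 to 1.18, adjusted p = 0.94). It was -2.11 (adjusted p = 0.012) without INT-787 replicate 4, 0.48 (adjusted p = 0.78) without OCA replicate 4, and -1.46 (adjusted p = 0.035) without both, the last an alternative chosen after seeing the data. The fall with INT-787 against vehicle was -6.22 without INT-787 replicate 4, and that with OCA was -4.76 without OCA replicate 4. With all mice, limma-voom gave -5.91 for INT-787 (adjusted p = 1.5e-09) and -4.72 for OCA (adjusted p = 3.2e-09).

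Replicate 4 was the highest mouse of its group for none of the other 9 enzymes, nor for Nr0b2, with either drug. For Cyp27a1 it was the second highest with each drug, at 274 CPM with OCA and 361 CPM with INT-787. Cyp7a1 in INT-787 replicate 4 was 18.1 CPM, the second highest of 9, and in OCA replicate 4 it was 11.2 CPM, the fourth highest of 9. Nr0b2 was 61.0 CPM in INT-787 replicate 4, beside 41.1 to 88.1 CPM in the other 8 mice, and 49.4 CPM in OCA replicate 4, beside 32.2 to 62.6 CPM. The 5 genes closest to Cyp8b1 across mice were those outside the enzymes with the highest Pearson correlation of log2 CPM after the group means were taken off, over 28 mice: Cyp4a31 (r = 0.77), Mgll (0.77), Ehhadh (0.75), Prpf19 (0.73), and Klhdc8a (0.72). They were chosen with these mice included. The labels give both replicates 4 and vehicle replicate 5 neighbouring sample numbers and do not say what the numbers stand for.

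Ehhadh (peroxisomal fatty acid oxidation) and Cyp4a31 (a fatty acid hydroxylase of a family with near-identical copies, whose counts are therefore uncertain) belong to fatty acid breakdown, and Mgll cleaves monoglycerides. Ehhadh was 1793 CPM in INT-787 replicate 4 and 281 to 481 CPM in the other 8 INT-787 mice. In OCA replicate 4 it was 754 CPM, beside 208 to 334 CPM in the other OCA mice and 417 to 646 CPM in vehicle mice. Without both replicates 4 the correlation with Cyp8b1 over 26 mice was 0.061 for Ehhadh and 0.19 for Cyp4a31, and 0.63 for Mgll, 0.70 for Prpf19, and 0.43 for Klhdc8a. The points share their libraries, and the correlations are given as descriptions. What set these mice apart was not tested. For Cyp7a1, the 5 closest genes were Gk (r = 0.75), Crk (0.71), Zfp229 (0.70), Cpeb4 (0.67), and Slc40a1 (0.67), and these values were 0.69 to 0.75 without both replicates 4.

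**Figure D2:**
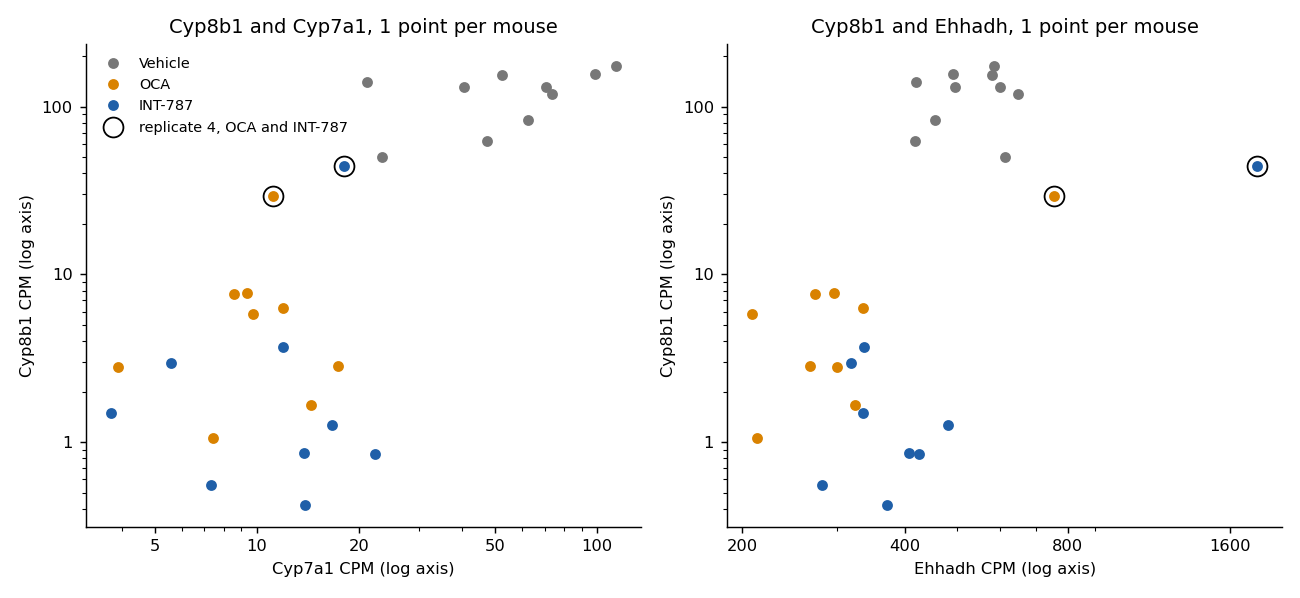
Cyp8b1 level in each mouse against Cyp7a1 (left) and against Ehhadh (right), all in CPM on log axes, with 1 point per mouse coloured by treatment and circles around replicate 4 of OCA and of INT-787. The circled mice have the highest Cyp8b1 and the highest Ehhadh of their groups, at 29.3 and 754 CPM with OCA and 44.1 and 1793 CPM with INT-787, while their Cyp7a1 lies within the range of the other treated mice.

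The balance of the branch enzyme to the entry enzyme shifted too, since Cyp8b1 fell further than Cyp7a1. The log2 ratio of Cyp8b1 to Cyp7a1 counts was 0.39 to 2.74 in vehicle mice (median 0.80), -3.09 to 1.39 with OCA (median -0.74), and -4.94 to 1.29 with INT-787 (median -3.63). Its mean was 3.68 lower with INT-787 than with vehicle, in log2 units (-3.68, exact permutation test, two-sided, adjusted p = 0.00019 over 9 tests). With OCA it was lower as well (-2.14, exact permutation test, adjusted p = 0.00057). INT-787 against OCA gave -1.53 (exact permutation test, adjusted p = 0.11). By the same exact test it gave -2.02 (adjusted p = 0.022) without INT-787 replicate 4, -1.23 (adjusted p = 0.21) without OCA replicate 4, and -1.71 (adjusted p = 0.042) without both. In each drug group replicate 4 stood out by its Cyp8b1 level, which is part of the ratio. The removal of both mice was chosen after seeing the data. The ranges of the groups overlapped in all 3 comparisons, and against vehicle only through replicate 4 of each drug, since the highest ratio of the other 8 mice was -0.16 with OCA and -0.91 with INT-787.

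Cyp27a1 (ENSMUSG00000026170, chr1:74713574-74737892), the mitochondrial sterol 27-hydroxylase that opens the alternative route and also acts on the side chain, was the first of 2 enzymes that differed between the drugs. Vehicle mice ranged from 243 through 294 to 322 CPM. OCA mice ranged from 171 through 241 to 283 CPM, and INT-787 mice from 267 through 312 to 376 CPM. The groups overlapped, but 7 of 9 INT-787 mice were above the highest OCA mouse. INT-787 was 1.34-fold higher than OCA (log2 0.42, SE 0.088, adjusted p = 0.0032). Against vehicle, the log2 fold change was 0.14 for INT-787 (95% interval -0.032 to 0.32, adjusted p = 0.26) and -0.28 for OCA (SE 0.086, adjusted p = 0.042). OCA replicate 8 had the lowest level of Cyp27a1 and also of Akr1d1 and Acox2 among the OCA mice. The OCA call was lost in 16 of 41 alternatives, among them the removal of any 1 of 11 mice. The edgeR adjusted p reached 0.085 without vehicle replicates 5 and 6. Over the 41 alternatives the log2 fold change with OCA lay between -0.31 and -0.23.

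Cyp7b1 and Cyp39a1 are both oxysterol 7-alpha-hydroxylases, and they moved in opposite directions. Cyp7b1 (ENSMUSG00000039519, chr3:18071950-18243338) was 7.73 to 13.7 CPM in vehicle mice (median 11.8), 5.91 to 10.5 CPM with OCA (median 7.77), and 5.44 to 11.3 CPM with INT-787 (median 7.87). The groups overlapped, with 4 of 9 mice of each drug below the lowest vehicle mouse. Its log2 fold change was -0.53 (SE 0.13, adjusted p = 0.0079) with OCA and -0.48 (SE 0.13, adjusted p = 0.0071) with INT-787. Cyp39a1 (ENSMUSG00000023963, chr17:43667425-43751431) was 26.2 to 43.7 CPM in vehicle mice (median 36.3), 38.8 to 75.1 CPM with OCA (median 63.2), and 39.1 to 62.4 CPM with INT-787 (median 52.8). With each drug, 8 of 9 mice were above the highest vehicle mouse. Its log2 fold change was 0.74 (SE 0.11, adjusted p = 4.0e-05) with OCA and 0.53 (SE 0.11, adjusted p = 0.0011) with INT-787. Between the drugs, the interval was -0.22 to 0.31 for Cyp7b1 (adjusted p = 0.91) and -0.45 to 0.024 for Cyp39a1 (adjusted p = 0.33), both on the log2 scale as INT-787 against OCA.

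Cyp7a1 also fell relative to Cyp7b1 and Cyp27a1, the enzymes of the alternative route for which ratios were computed. The log2 ratio of Cyp7a1 to Cyp7b1 counts had a mean of 2.26 in vehicle mice, 0.32 with OCA, and 0.47 with INT-787 (exact permutation test against vehicle, adjusted p = 0.00013 and 0.00033). The log2 ratio of Cyp7a1 to Cyp27a1 counts had a mean of -2.45 in vehicle mice, -4.61 with OCA, and -4.86 with INT-787 (exact permutation test, adjusted p = 0.00013 for each drug). INT-787 against OCA gave adjusted p of 0.66 and 0.52 for these ratios in the exact permutation test.

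Akr1d1 (ENSMUSG00000038641, chr6:37530173-37568815), the reductase that gives the steroid ring of bile acids its 5-beta form, rose with both drugs and rose more with INT-787. Vehicle mice ranged from 60.8 through 83.7 to 115 CPM, OCA mice from 127 through 175 to 222 CPM, and INT-787 mice from 237 through 313 to 351 CPM. The 3 groups did not overlap. The log2 fold change was 1.89 (SE 0.11, adjusted p = 9.5e-14) with INT-787 and 1.01 (SE 0.11, adjusted p = 1.2e-07) with OCA. INT-787 was 1.84-fold higher than OCA (log2 0.88, SE 0.11, adjusted p = 6.2e-06), and this value stayed between 0.84 and 0.94 over 41 alternatives. The 9 enzymes were compared between 1 pair of compounds at the same dose and time, and only Akr1d1 and Cyp27a1 passed the test.

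Hsd3b7 (ENSMUSG00000042289, chr7:127800604-127803802), which oxidizes the 3-hydroxyl group after 7-alpha-hydroxylation, was close to the limit of detection. It had 0 to 18 counts in vehicle mice, 0 to 12 with OCA, and 2 to 26 with INT-787, and the highest level was 1.82 CPM. Of its 2769 exonic bases, 1717 are shared with Gm49388 on the same strand and 1729 lie opposite 9430064I24Rik. Gm49388 had 0 counts in all 28 mice. Whether reads shared by overlapping genes were dropped in counting was not tested, so the level of Hsd3b7 is uncertain. Without the filter on low counts, edgeR gave an adjusted p of 0.91 for INT-787 and 0.65 for OCA, both against vehicle, and 0.57 between the drugs.

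Cyp2c70 (ENSMUSG00000060613, chr19:40153353-40187333) rose with each drug. Vehicle mice ranged from 127 through 165 to 245 CPM, OCA mice from 207 through 277 to 436 CPM, and INT-787 mice from 196 through 286 to 374 CPM. The groups overlapped by few mice, with 7 of 9 OCA mice and 8 of 9 INT-787 mice above the highest vehicle mouse. The log2 fold change was 0.76 (SE 0.14, adjusted p = 0.00031) with OCA and 0.71 (SE 0.14, adjusted p = 0.00034) with INT-787, and the interval of the difference between the drugs was -0.34 to 0.23 (adjusted p = 0.89).

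Acox2 and Amacr act in the peroxisome, where the side chain of the bile acid precursor is shortened. Acox2 (ENSMUSG00000021751, chr14:8225511-8259353), an oxidase, ranged from 162 through 183 to 204 CPM in vehicle mice, from 159 through 207 to 257 CPM with OCA, and from 188 through 228 to 242 CPM with INT-787. The groups overlapped, with 6 of 9 OCA mice and 7 of 9 INT-787 mice above the highest vehicle mouse and 1 OCA mouse below the lowest. Acox2 rose with INT-787 (log2 0.28, SE 0.075, adjusted p = 0.0070), and with OCA the value was 0.19 (95% interval 0.032 to 0.34, adjusted p = 0.16). The difference between the drugs was 0.10 (95% interval -0.057 to 0.26, adjusted p = 0.54), so Acox2 was not shown to differ between them. Amacr (ENSMUSG00000022244, chr15:10981756-10996626), a racemase, ranged from 75.4 through 90.4 to 115 CPM in vehicle mice, from 114 through 125 to 147 CPM with OCA, and from 105 through 123 to 180 CPM with INT-787. It rose with both, by 0.46 (SE 0.096, adjusted p = 0.0020) in log2 units with OCA and by 0.56 (SE 0.096, adjusted p = 7.3e-05) with INT-787, and 8 of 9 OCA mice and 7 of 9 INT-787 mice were above the highest vehicle mouse.

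**Figure D3:**
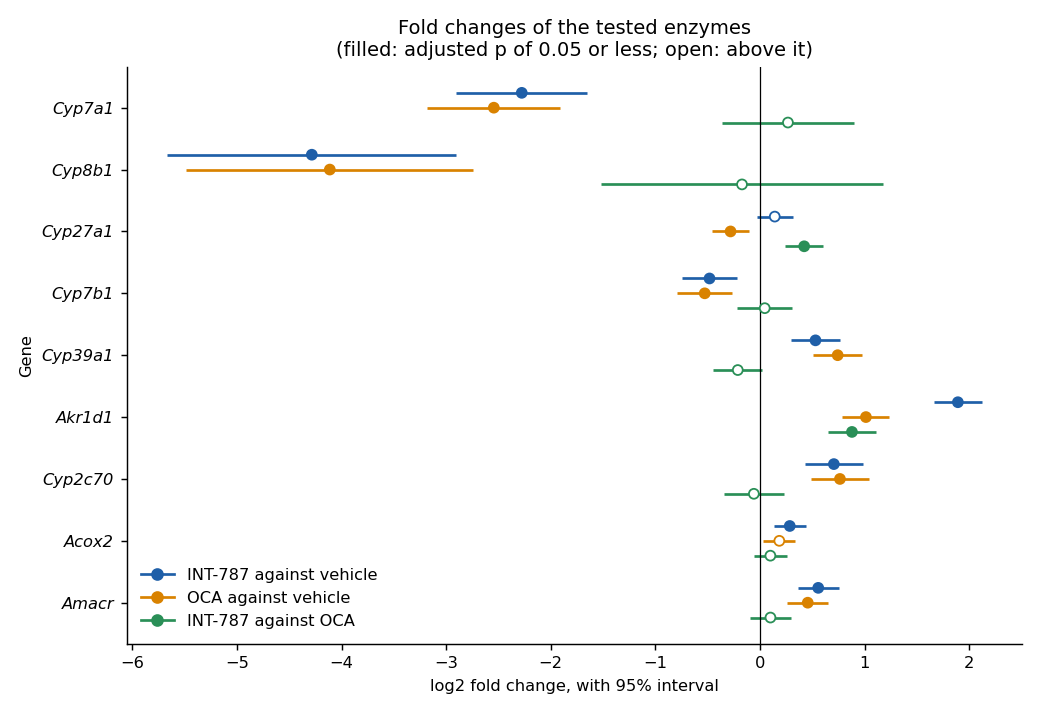
Log2 fold change (x axis) of the 9 tested enzymes (y axis) for each drug against vehicle and for INT-787 against OCA, with 95% intervals. Filled points have an adjusted p of at most 0.05. Akr1d1 at 0.88 and Cyp27a1 at 0.42 are the filled points between the drugs, and the interval of Cyp8b1 there, from -1.52 to 1.18, is the widest.

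Per length of exon, the order of the enzymes changed with treatment. In vehicle mice Cyp27a1 had the highest level, 134 ± 10.9 CPM per kb (mean ± SD, n = 10), followed by Cyp2c70 at 88.9 ± 20.02, Cyp8b1 at 61.6 ± 21.5, Acox2 at 49.0 ± 3.54, Amacr at 35.0 ± 4.93, Akr1d1 at 29.01 ± 5.25, Cyp7a1 at 14.5 ± 7.18, Cyp39a1 at 11.8 ± 2.03, Cyp7b1 at 5.17 ± 0.98, and Hsd3b7 at 0.165 ± 0.12 CPM per kb. Neighbours such as Cyp8b1 and Acox2, or Cyp7a1 and Cyp39a1, differed by less than the spread between mice. With INT-787, Akr1d1 rose in the order to 108 ± 12.4 CPM per kb (n = 9), behind Cyp27a1 at 148 ± 17.4 and Cyp2c70 at 146 ± 25.5. Cyp8b1 at 3.20 ± 7.30 and Cyp7a1 at 3.01 ± 1.46 CPM per kb were next above Hsd3b7, and the place of Cyp8b1 turned on INT-787 replicate 4, without which its level was 0.775 ± 0.61 CPM per kb (n = 8). With OCA, Cyp2c70 at 152 ± 38.2 CPM per kb (n = 9) was above Cyp27a1 at 110.1 ± 15.9, and Cyp8b1 at 3.71 ± 4.43 and Cyp7a1 at 2.497 ± 0.94 were low, in an order that turned without OCA replicate 4 (2.30 ± 1.38 for Cyp8b1 and 2.475 ± 1.00 for Cyp7a1, n = 8). Akr1d1 was then at 58.5 ± 11.1, Acox2 at 55.6 ± 7.19, and Amacr at 48.3 ± 4.45 CPM per kb, and these neighbours differed by about their spread or less.

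Correlations within groups showed how the enzymes varied among themselves apart from the treatments. Over 36 pairs of enzymes and 28 mice, with group means taken off, Pearson's r ranged from -0.23 to 0.58 with a median of 0.19, and 29 pairs were positive. By permutation within groups, 0 pairs passed an adjusted p of 0.05, while 8 had an unadjusted p under 0.05 by Pearson's r and 5 by Spearman's rho. The highest was Akr1d1 with Acox2 (r = 0.58, adjusted permutation p = 0.072, and rho = 0.52, adjusted permutation p = 0.24), and r was 0.61 without the 2 mice farthest from the median of Akr1d1. Within the groups this r was 0.91 with OCA, 0.32 with vehicle, and 0.23 with INT-787, and OCA replicate 8 was the lowest OCA mouse for both genes.

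Among 14 other genes of bile acid synthesis and conjugation, 12 were tested and Ch25h and Star were not. With INT-787, 2 of 12 were called, a share near the 19.6% of all genes, and both were higher: Cyp2a12, which hydroxylates secondary bile acids in mice (log2 0.92, adjusted p = 4.6e-07), and Slc27a5, which activates bile acids for conjugation (0.61, adjusted p = 0.00029). With OCA, 2 of 12 were called, beside 6.6% of all genes: Cyp2a12 rose (0.57, adjusted p = 0.0013) and Cyp46a1, the cholesterol 24-hydroxylase, fell (-0.93, adjusted p = 0.035), the latter with 2.69 to 4.77 CPM in vehicle mice and 0.062 (replicate 8) to 2.94 CPM in OCA mice. None of the 12 was called between the drugs by edgeR, beside 5.38% of all genes called. Of the 12, 6 had an unadjusted p under 0.05, and the share of all genes at that looser limit was not computed. The genes not called were Akr1c14, Fdxr, Baat, Fdx1, Abcd3, Slc27a2, Hsd17b4, Scp2, and Acot8.

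Of 13 regulators, all tested, 8 were called with INT-787, where 19.6% of all genes were, and 3 with OCA, where 6.6% were. Nr0b2, the repressor that FXR induces, had 8.39 to 34.9 CPM in vehicle mice, 32.2 to 62.6 CPM with OCA, and 41.1 to 88.1 CPM with INT-787. It rose with INT-787 (log2 1.62, adjusted p = 2.0e-07) and with OCA (1.17, adjusted p = 0.00010), and 7 of 9 OCA mice and 9 of 9 INT-787 mice were above the highest vehicle mouse. Mafg, a repressor of bile acid enzymes and a target of FXR, rose with INT-787 (0.96, adjusted p = 3.1e-08) and OCA (0.69, adjusted p = 3.2e-05). Nr5a2 (LRH-1), an activator of Cyp7a1 and Cyp8b1, rose as well, by 0.28 (adjusted p = 0.018) with INT-787 and 0.28 (adjusted p = 0.049) with OCA. Past the threshold with INT-787 and not with OCA were, among others, Nr1i2 (PXR, 0.58), Klb (0.43), and Prox1 (0.31), which were higher, and Onecut1 (HNF6, -1.57, adjusted p = 0.0071), which was lower. None of the 13 was called between the drugs by edgeR, where 5.38% of all genes were. Of the 13, 4 had an unadjusted p under 0.05, a limit at which the share of all genes was not computed. Nr1h4, the gene of FXR itself, was not called, and neither were Rxra, Fgfr4, Hnf4a, and Nr1h3.

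**Figure D4:**
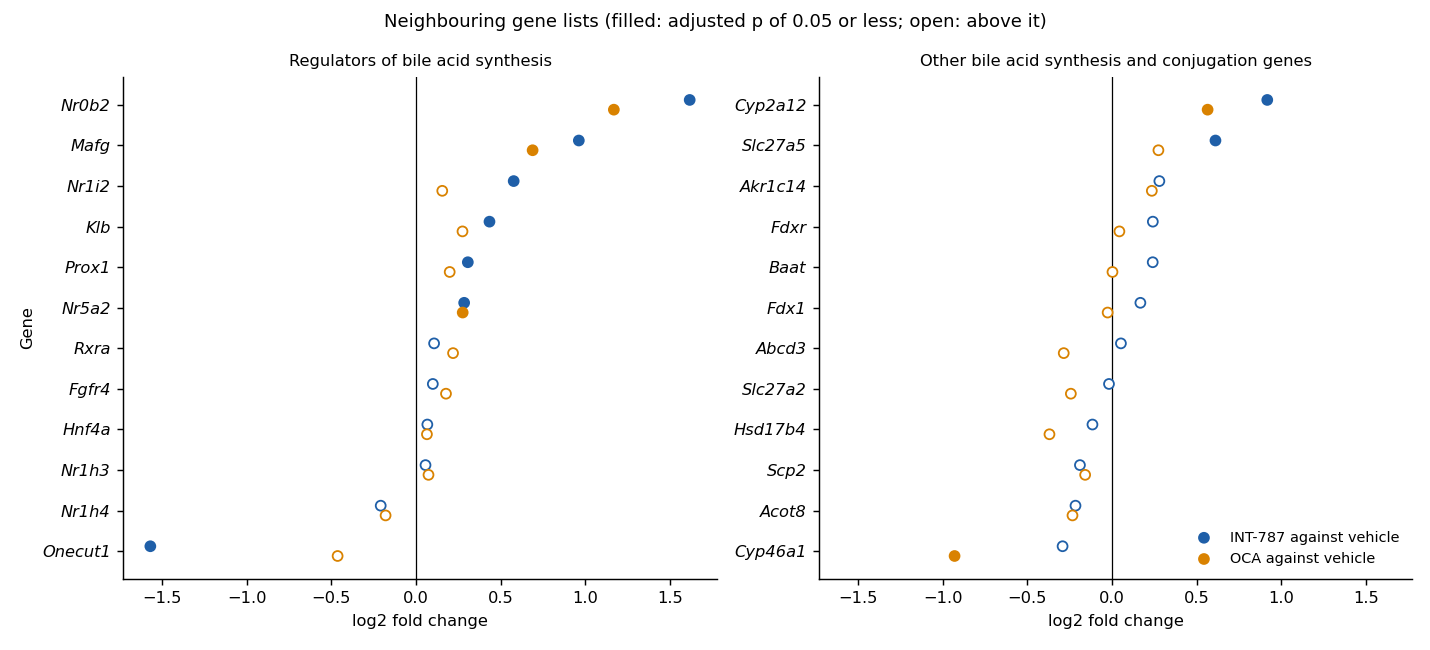
Log2 fold change (x axis) of the regulators named in the text (left) and of the other tested genes of bile acid synthesis and conjugation (right), for INT-787 and for OCA against vehicle, with filled points at an adjusted p of at most 0.05. Nr0b2 lies at 1.62 for INT-787 and 1.17 for OCA, and Onecut1 lies lowest at -1.57 for INT-787.

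Lists of zonation, clock, and cell type genes were measured beside the enzymes, and their part in the results was not tested. Their counts of called genes stand beside 10.2% of all genes higher and 9.48% lower with INT-787, and 4.15% higher and 2.45% lower with OCA. The share of all genes with an unadjusted p under 0.05 was not computed, so counts at that limit stand without it. Genes of periportal hepatocytes were called higher in 7 of 7 with INT-787 and in 5 of 7 with OCA, among them Hal (log2 2.28 and 2.00), Ass1 (1.42 and 1.02), and Gls2 (1.29 and 0.97). Of 7 genes of pericentral hepatocytes, the zone where Cyp7a1 is mainly made, edgeR called none with either drug, and 0 with INT-787 and 2 with OCA had an unadjusted p under 0.05. Their summed level was 5787 to 11287 CPM in vehicle mice, 3227 to 11626 with OCA, and 4572 to 8925 with INT-787. Hepatocyte markers were called higher in 4 of 7 with each drug, among them Alb (0.45 with INT-787 and 0.62 with OCA). Over the 7 markers, log2 fold changes ranged from -0.33 to 0.99 with INT-787 and from 0.056 to 0.89 with OCA. Clock genes rose in 3 of 11 with INT-787 (Per2, Per3, and Tef) and in 1 with OCA (Tef), and 6 and 7 of the 11 had an unadjusted p under 0.05. With INT-787, markers of stellate cells fell in 6 of 9, of macrophages in 3 of 10, of cholangiocytes in 2 of 6, and of endothelial cells in 2 of 6. With OCA edgeR called none of these. An unadjusted p under 0.05 was found for 7, 5, 3, and 4 genes with INT-787 and for 1, 1, 2, and 4 with OCA. The median of the endothelial markers was -0.33 with INT-787 and -0.30 with OCA. Between the drugs, edgeR called 4 of 9 stellate cell markers and 1 of 6 cholangiocyte markers lower with INT-787. It called 3 of 10 macrophage markers lower and 1 higher, 2 of 7 periportal genes higher, and none in the other lists of this paragraph. Over all genes, 3.19% were lower and 2.19% higher there. Of 5 tested lymphocyte and neutrophil markers, none was called with either drug, and 1 with each had an unadjusted p under 0.05. The summed level of the 9 stellate cell markers was 1402 to 2601 CPM in vehicle mice, 1309 to 3479 CPM with OCA, and 508 to 1277 CPM with INT-787.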

How the data were processed

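Poly-A messenger RNA was sequenced from the liver of each mouse with a stranded kit. The authors aligned the reads to GRCm38 with STAR and deposited raw counts of reads per gene, without normalization. The program that counted the reads and its use of strand are not given in the sources used here. The 21935 genes were matched to GENCODE M21, which gave a symbol for 21858, and 0 columns belonged to no sample. Groups came from the sample labels, and each mouse is a replicate.

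Counts were analysed with R 4.3.3, edgeR 4.0.16, DESeq2 1.42.0, limma 3.58.1, and Python 3.11.15. Genes kept by filterByExpr (12580) were TMM normalized and tested with glmQLFit and glmQLFTest in 1 model of the 3 groups, with Benjamini-Hochberg adjustment. CPM used TMM-scaled totals. For ratios, 0.5 was added to each count, and all splits of the mice were enumerated. Correlations used 100000 permutations within groups. Outliers were searched on log2(CPM + 0.5). Methods were tested on simulated data. The named genes were the 10 enzymes, the called genes of the lists of regulators and other synthesis genes (the rest of these lists by name only), the 5 genes closest to Cyp7a1 and to Cyp8b1, and at most 3 examples from each other list. A gene that this rule selects is not reported here and remains in all counts. The enzymes and lists were chosen with earlier results of these data known. No mouse was left out of the main results.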

Additional observations from a re-analysis of the deposited data

Results flagged for a closer look

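In INT-787 replicate 4, Cyp8b1 was 44.1 CPM, far from the other 8 mice of its group (0.423 to 3.67 CPM). On the log2 scale its gap to the next mouse was 0.61 of the range of the group, above Dixon's 95% value of 0.493 for 9 mice. It was the only value past this limit among 30 groups searched (10 enzymes in 3 treatments), and chance alone passes it in about 1 of 20 groups.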

How the results depend on the processing

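The number of enzymes called was 7 or 8 for each drug against vehicle and 2 or 3 between the drugs in the alternatives run, with 1 exception. When the log2 change also had to reach 1 in size, 3 were left for INT-787, 3 for OCA, and 0 between the drugs. At that cut, 363, 154, and 134 of all 12580 tested genes were called in the same order. At an adjusted p of at most 0.01 in edgeR, 1334, 435, and 247 of all tested genes were called. Over all tested genes, 443 in place of 677 were called between the drugs without OCA replicate 8. Of the 1104 recomputed log2 fold changes, 1080 kept their direction and their side of the threshold. The 16 that lost the call were all of Cyp27a1 with OCA. With 1 mouse left out at a time, the value between INT-787 and OCA ranged from -2.11 to 0.48 for Cyp8b1, and changed sign for Cyp7b1 without INT-787 replicate 8 (range -0.027 to 0.11) and for Cyp2c70 without OCA replicate 9 (range -0.11 to 0.026). For Cyp8b1 between the drugs, DESeq2 fitted to the 2 drug groups alone gave -2.08 (adjusted p = 0.011), near the edgeR value without INT-787 replicate 4. DESeq2 ran with its default handling of outlying counts, whose part in this value was not tested. The limma-voom value for Cyp8b1 between the drugs was -1.19 (adjusted p = 0.32). Acox2 with OCA passed without OCA replicate 8 (adjusted p = 0.048). Cyp8b1 could not be tested with at least 10 counts required in every mouse. Correlations between enzymes gave 0 calls with or without vehicle replicates 5 and 6. With the replicate number as a block, 8, 7, and 2 enzymes were called, Cyp27a1 with OCA was the call lost (-0.28, adjusted p = 0.057), and the log2 fold change of Cyp8b1, INT-787 against vehicle, was -5.60 in place of -4.28. Over 27 pairs of mice with the same number, the correlation of deviations ranged from -0.25 to 0.47 with a median of 0.090, and 13 were over 0.1. The numbers were not taken as pairs in the main results. Replicate numbers and the sample numbers in the labels run together only in part, so a block of 11 sets of neighbouring sample numbers was added after seeing the data. Its 25 pairs of mice correlated from -0.21 to 0.47 (median 0.12, 15 over 0.1). With this block, 8, 7, and 2 enzymes were called, Cyp27a1 with OCA was again the call lost (adjusted p = 0.060), and the value for Cyp8b1 was -5.54 with INT-787 against vehicle and -0.99 between the drugs (adjusted p = 0.33), and the value between the drugs changed sign for Cyp2c70 (0.073). Vehicle replicate 6, with 1009593 counts, limits what low genes such as Hsd3b7 can show.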
